A study of Mus musculus with 8 samples.

Results

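The 10 genes described here belong to the unfolded protein response, the program that a cell switches on when its endoplasmic reticulum (ER) holds more unfolded protein than it can process. They are Hspa5, Hsp90b1, Calr, Pdia4, Pdia6, Dnajb9, Herpud1, Xbp1, Atf4 and Ddit3, chosen by name and not by their values. All 10 of the 11447 genes in the tables were found, and each had values in all 8 libraries.

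The cells were GFP-positive cells sorted as smooth muscle from the ascending aorta of mice, profiled on the 10x Genomics Chromium droplet system. KO mice lacked the TGF-beta receptor Tgfbr2 in smooth muscle and were also Apoe-deficient, while Apoe mice (Apoe-/-) were Apoe-deficient alone, so loss of Apoe, which raises plasma cholesterol, is shared by every group. Each genotype contributed 1 library on the diet labelled ND and 1 each after 1, 2 and 4 months of high fat diet (HFD; 1M, 2M and 4M). The labels name neither the Cre driver nor the age of the mice, nor how many animals went into a library. A single library per group has no replicate error, and the tests below measure the spread of libraries around a model.

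In the ER membrane 3 sensors start the response. IRE1 splices the Xbp1 mRNA into the form that encodes an active transcription factor, PERK slows translation and raises the transcription factor ATF4, and ATF6 is cut to release its active part. Their targets include ER chaperones, folding enzymes, components that return misfolded proteins for degradation, and, downstream of ATF4, amino acid synthesis genes and Ddit3, which encodes the factor CHOP. Cells that secrete large amounts of matrix, chondrocytes among them, are known to rely on this machinery.

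The promoters of 5 of the 10 genes held a classical ER stress element, shown here because these letters are the sequence through which XBP1 and ATF6 are known to act. In the RefSeq promoter windows (GRCm38.p6, 250 bases before to 50 bases after the start), all 10 genes matched an entry. The element known as ERSE is CCAAT, then 9 bases of any kind, then CCACG. It was searched on both strands and found in 0.119% of 32851 windows, among them those of Hspa5, Hsp90b1 (a copy on each strand), Calr and Pdia6. The shorter ERSE-II, which is ATTGG and CCACG with 1 base of any kind between them, was found in 0.0365% of the windows, among them that of Herpud1. Capitals mark the element, bases run 5′ to 3′ on the gene's strand, and the Calr copy reads as the reverse complement.
Hspa5 (chr2:34772005-34772063, + strand): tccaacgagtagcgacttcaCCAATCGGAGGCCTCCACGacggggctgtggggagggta
Hsp90b1 (chr10:86705618-86705676, - strand): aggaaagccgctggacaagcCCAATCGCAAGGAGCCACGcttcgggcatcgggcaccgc
Calr (chr8:84847055-84847113, - strand): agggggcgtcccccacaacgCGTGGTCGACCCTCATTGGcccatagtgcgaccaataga
Pdia6 (chr12:17266471-17266529, + strand): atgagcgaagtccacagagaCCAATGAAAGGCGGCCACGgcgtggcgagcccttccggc
Herpud1 (chr8:94386357-94386407, + strand): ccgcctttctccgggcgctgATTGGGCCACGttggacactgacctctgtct

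The elements began 65 bases before the RefSeq start in Hspa5, 212 in Hsp90b1, 162 in Calr, 98 in Pdia6 and 52 in Herpud1. The GENCODE bounds given below can differ from the RefSeq start. Those of Hspa5 begin at 34771970, so the stretch printed here lies within them. The letters of the site bound by ATF4 with C/EBP factors, TGATGNAA, occurred in 3.97% of all windows on either strand, and of the 10 genes in Herpud1 alone, as the reverse complement beginning 112 bases before the start. Neither ER stress element was in the windows of Pdia4, Dnajb9, Xbp1, Atf4 or Ddit3, which says only that these letters are not within those bases. A match is a description of the letters and was not tested for binding.

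The libraries held 13056 cells, from 1127 (KO ND) to 2659 (Apoe 2M), and from 9407155 (Apoe 4M) to 19719335 (Apoe 2M) UMIs, counts of unique mRNA molecules. The 4M pair stood apart. In KO 4M, Col2a1, the cartilage collagen, had at least 1 UMI in 99.9% of cells and 11749 UMIs per 1000000 UMIs of a library (CPM), against 36.6% of cells and 2545 CPM in Apoe 4M. The smooth muscle actin Acta2 stood at 802 CPM in KO 4M, seen in 66.5% of cells, against 11932 CPM and 99.4% of cells in Apoe 4M, and at 18217 CPM or more in the other 6 libraries. The KO 4M library therefore goes against the label of smooth muscle by that defining marker. It was also the deepest per cell, with a median of 10988 UMIs against 6966 in Apoe 4M. Of the macrophage markers in the tables, 3 of 7 were listed in KO 4M (52.0 CPM in sum) and 0 in Apoe 4M, and 26 cells in KO 1M and 3 in KO 4M carried at least 3 of them. Of 8 fibroblast markers 6 were listed in KO 4M, summing to 13893 CPM, and 5 in Apoe 4M, summing to 5308 CPM. The part of these markers in the results was not tested. Tgfbr2 itself was not analysed here, so the KO label was not checked on that gene. Fewer cells of a type and less RNA per cell cannot be told apart in library sums.

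After 4 months of diet all 10 genes were higher in KO than in Apoe. The ratios ran from 1.26 for Calr to 3.12 for Pdia6. Of the 10, 5 passed 1.5-fold, which were Pdia6, Herpud1, Xbp1, Pdia4 and Atf4. Of the 8624 genes listed in both 4M libraries, 14.7% were at least 1.5-fold higher in KO and 32.9% at least 1.5-fold lower, and the median gene lay at -0.25 on the log2 scale. On the earlier diets some of the genes were lower in KO and others were near Apoe. All 10 were below Apoe at 1M, none past 1.5-fold. Herpud1 was 1.5-fold lower in KO on ND, and Atf4, Ddit3 and Dnajb9 were so at 2M. The share of all genes at least 1.5-fold lower in KO was 7.21% on ND, 3.85% at 1M and 11.1% at 2M, and the share at least 1.5-fold higher was 3.60%, 3.12% and 5.17%.

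**Figure D1:**
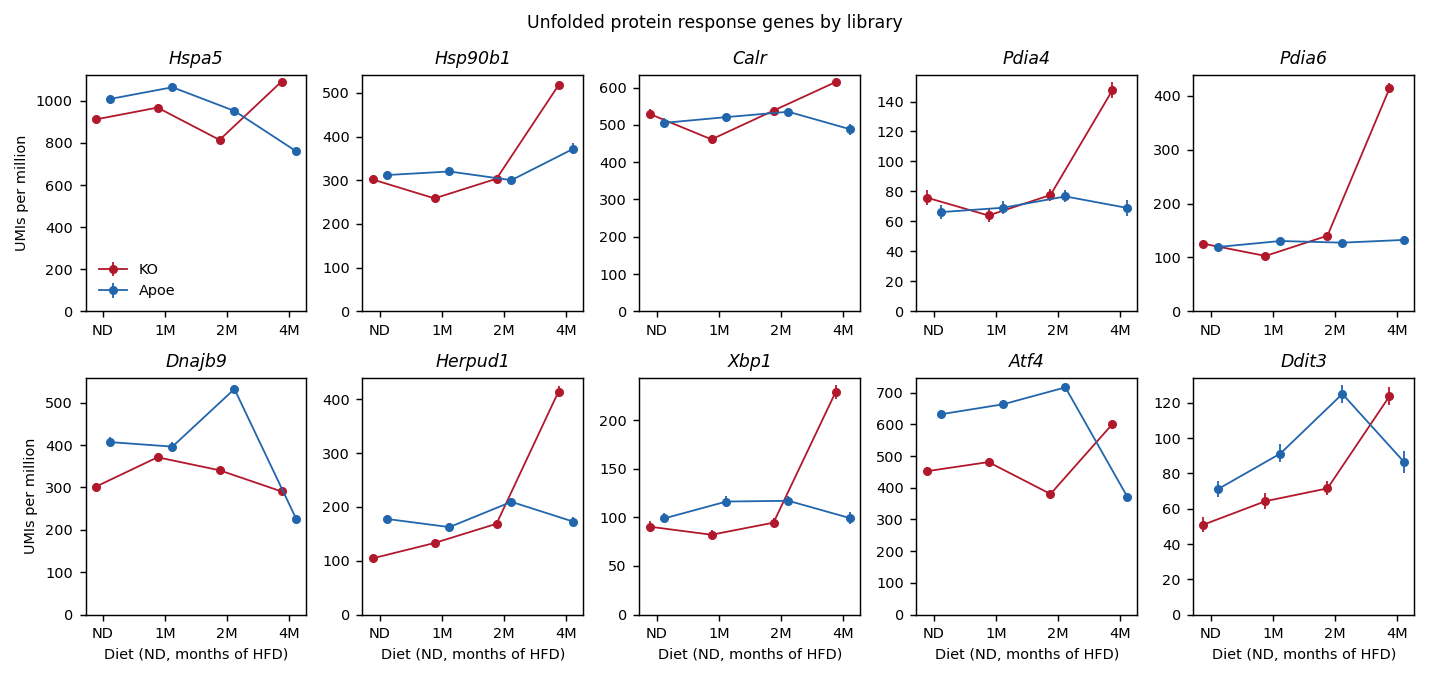
UMIs per 1000000 UMIs of the library for each gene in the 4 KO libraries (red) and the 4 Apoe libraries (blue) by diet, 1 library per point, with exact Poisson 95% intervals. In KO 4M, Pdia6, Herpud1, Xbp1 and Pdia4 stand apart from the other 7 libraries, while Atf4 and Dnajb9 are highest in Apoe 2M.

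The ER folding genes come first, with coordinates from GENCODE vM21 (GRCm38). Pdia6, a protein disulfide isomerase (chromosome 12, 17266545 to 17284770, + strand), had 125.5, 102.8, 140.4 and 413.6 CPM in KO on ND, 1M, 2M and 4M, and 119.5, 130.5, 127.4 and 132.6 CPM in Apoe on the same diets. Every library but KO 4M lay between 102.8 and 140.4 CPM. Pdia4, another disulfide isomerase (chromosome 6, 47796141 to 47813430, - strand), had 75.9, 64.0, 77.6 and 147.6 CPM in KO and 66.2, 69.2, 76.7 and 69.0 CPM in Apoe. The counting interval of its ratio held 1 on 1M and 2M, and KO 4M was again alone at the top, 2.14-fold above Apoe 4M (95% counting interval 1.96 to 2.33). Hsp90b1, the ER form of HSP90 (chromosome 10, 86690209 to 86705509, - strand), had 301.8, 258.5, 303.5 and 517.4 CPM in KO and 312.0, 320.0, 300.2 and 372.1 CPM in Apoe. Both genotypes had their highest level at 4M, with KO 4M above Apoe 4M.

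Hspa5 (chromosome 2, 34771970 to 34777547, + strand) encodes BiP, the chief ER chaperone, which also holds the 3 sensors inactive. It had 911.5, 967.8, 814.4 and 1091.5 CPM in KO and 1009.2, 1064.6, 952.1 and 759.6 CPM in Apoe. KO 4M and Apoe 1M were the highest libraries, and Apoe 4M was the lowest of all 8, so the 1.44-fold ratio at 4M joins the ends of the range. Calr, calreticulin, a chaperone of glycoproteins (chromosome 8, 84841850 to 84846934, - strand), had the narrowest range, from 461.0 CPM in KO 1M to 614.5 CPM in KO 4M. Its Apoe levels lay between 487.9 and 535.0 CPM. Dnajb9, a BiP partner that dampens IRE1 (chromosome 12, 44205559 to 44210326, - strand), had 301.6, 371.4, 340.7 and 290.7 CPM in KO and 407.2, 396.5, 532.6 and 224.8 CPM in Apoe. Its KO 4M level was not above that of any other KO library, and Apoe 4M was lower still.

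Herpud1, a membrane protein of ER-associated degradation (chromosome 8, 94386438 to 94395377, + strand), had 104.4, 133.0, 168.8 and 414.5 CPM in KO and 177.6, 162.5, 209.5 and 172.6 CPM in Apoe. In KO its library level climbed with each longer diet. The 2196 KO 2M cells of the Col2a1-low bin defined below had 137.5 CPM (counting interval 132.1 to 143.2). That interval overlapped the one of the KO 1M library (126.6 to 139.7). The 23 high cells of KO 2M had 751.9 CPM and the 34 cells between had 813.3 CPM. The share of KO cells with Herpud1 was 62.9%, 62.0% and 60.9% on ND, 1M and 2M. With cells thinned to 2900 UMIs it was 26.4%, 29.0% and 30.8%. The range of Herpud1 over the 8 libraries, 3.97-fold, was second to that of Pdia6 (4.02-fold). Herpud1 overlaps the antisense gene Gm15890, listed in KO 4M alone at 14.2 CPM, and no source used here says whether strand was used in counting.

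Xbp1 (chromosome 11, 5520659 to 5525893, + strand) had 90.4, 82.1, 94.5 and 228.6 CPM in KO and 98.9, 116.2, 117.0 and 99.1 CPM in Apoe. Gene counts do not separate its spliced from its unspliced form. Atf4 (chromosome 15, 80255184 to 80257541, + strand) had 452.0, 480.9, 380.2 and 601.1 CPM in KO, and 632.0, 663.4, 716.6 and 371.1 CPM in Apoe. In Apoe it was high through 2M and lowest at 4M, so KO 4M was above Apoe 4M without exceeding any earlier Apoe library. Ddit3, the pro-apoptotic factor CHOP (chromosome 10, 127290774 to 127296288, + strand), had 51.0, 64.3, 71.5 and 123.8 CPM in KO and 71.2, 91.3, 125.1 and 86.3 CPM in Apoe. The intervals of KO 4M and Apoe 2M, the 2 highest, overlapped. Ddit3 overlaps Mars on the other strand, which had 17.8 to 28.8 CPM in the 8 libraries.

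Shares of cells gave the same picture as levels at 4M. With every cell thinned to 2900 UMIs, Pdia6 was seen in 61.4% of KO 4M cells and 30.6% of Apoe 4M cells. Herpud1 was seen in 59.9% of KO 4M cells and 36.5% of Apoe 4M cells. Xbp1 was seen in 44.3% of KO 4M cells and 22.9% of Apoe 4M cells. Unthinned, the Pdia6 shares were 89.0% in KO 4M and 57.3% in Apoe 4M, at unequal depth. All 10 genes had the higher share in KO 4M both ways. These genes are used by every cell type, so no type in the data gives a background share.

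**Figure D2:**
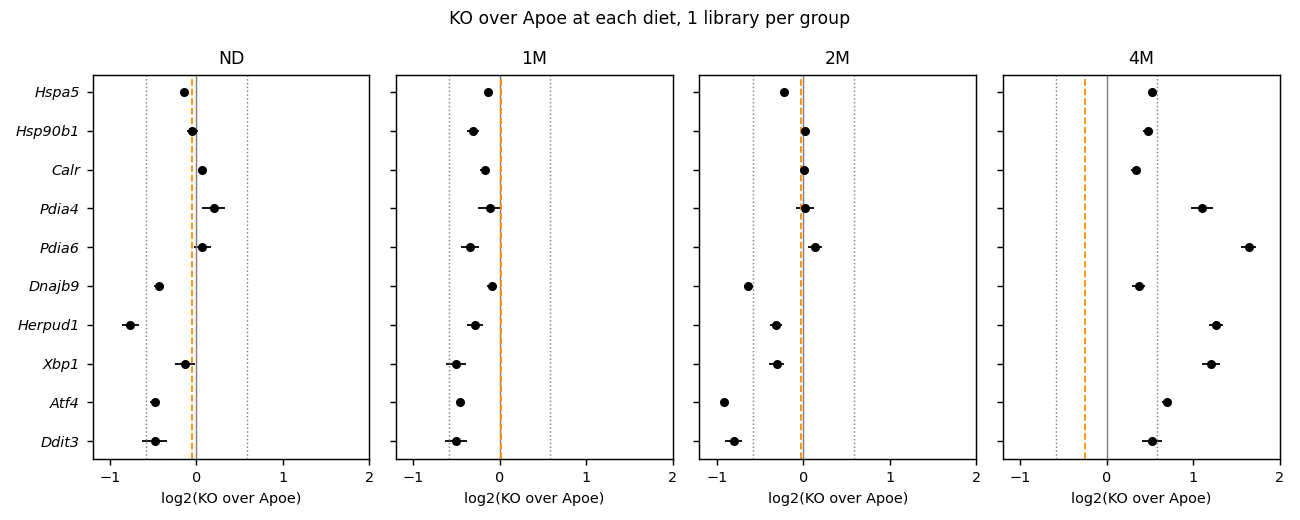
log2 ratio of KO over Apoe for each gene at each diet, with 95% counting intervals, from 1 library per group. Dotted lines mark 1.5-fold and the dashed line the median of all genes listed in both libraries; all 10 genes lie to the right of 0 at 4M, and all 10 to the left at 1M.

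The next question was whether the KO-minus-Apoe difference at 4M exceeded the spread of that difference over the other 3 diets. It did for 9 of the 10 genes, all upward (limma, log2(CPM + 1) of library sums, Benjamini-Hochberg adjusted p under 0.05 over 7994 genes). The background was 47.2% of genes called, 14.7% higher and 32.5% lower. Herpud1 had the largest term, 1.71 ± 0.22 on the log2 scale (SE, 2 residual degrees of freedom, adjusted p = 0.00036 by limma). Pdia6 followed at 1.68 ± 0.21 and Xbp1 at 1.51 ± 0.19. The terms of Atf4 (1.31), Ddit3 (1.11) and Pdia4 (1.05) were also above 1. Dnajb9 (0.76), Hspa5 (0.69) and Hsp90b1 (0.59) were called with smaller terms, and Calr had 0.37 ± 0.17 (adjusted p = 0.104). The median over the 10 genes was 1.08 and over all genes -0.23.

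That split between higher and lower calls depends on how libraries are scaled. By library totals, 1177 genes were called higher and 2600 lower. With median-of-ratios size factors the counts were 1841 and 1865 and the median of all genes was 0.00, and with mean log2 values over cells they were 2441 and 1247. All 10 genes were called higher under both of these, Calr included. Mean log2 values move with depth per cell, which was highest in KO 4M. With genes listed in only some libraries let into the fit, Hsp90b1 (adjusted p = 0.0649) and Dnajb9 (adjusted p = 0.0858) were no longer called.

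Different levels stood behind the terms above 1. Pdia6, Pdia4, Xbp1 and Herpud1 had higher levels in KO 4M than in any other library. Atf4 and Ddit3 were also highest at 4M among the KO libraries, at 601.1 and 123.8 CPM. Their terms joined this with a KO deficit on the earlier diets and an Apoe level at 4M below that at 2M. In Apoe, Ddit3 was still higher at 4M (86.3 CPM) than on ND (71.2 CPM). The summed level of 18 genes known to respond to tissue dissociation and stress, such as Fos, was 10324, 11653, 11251 and 6653 CPM in KO from ND to 4M, and 16277, 16403, 18084 and 13803 CPM in Apoe. It was lower in KO on every diet, and its part in the results was not tested.

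Over the 4 diets together, no gene of the 7994 passed the threshold for a genotype effect by limma (1055 had an unadjusted p under 0.05), and so none of the 10. Without the 4M pair, 4 of the 10 genes were called lower in KO than in Apoe over ND, 1M and 2M, against 11.4% of all genes called lower and 7.07% called higher. The KO-minus-Apoe difference was -0.62 on the log2 scale for Atf4 (SE 0.10, limma adjusted p = 0.00601) and -0.59 for Ddit3 (SE 0.10, limma adjusted p = 0.00577). It was -0.45 for Herpud1 (limma adjusted p = 0.0232) and -0.39 for Dnajb9 (limma adjusted p = 0.0386). All 4 were lower in KO in 3 of 3 diets. Xbp1 had -0.31 (adjusted p = 0.055) and Hspa5 -0.17 (adjusted p = 0.16), while Calr, Pdia6, Pdia4 and Hsp90b1 lay between -0.11 and 0.03. Of the 18 dissociation and stress genes, 14 were called lower in the same fit.

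Among related lists in that fit, Nupr1, a stress factor and ATF4 partner, had a KO-minus-Apoe difference of -2.38, and the ER stress transducer Creb3l2 had -1.19. Nupr1 had 245.1, 456.7 and 899.4 CPM in KO on ND, 1M and 2M, against 2073.4, 2042.8 and 3406.0 CPM in Apoe. From ND to 2M it was higher on each longer diet in KO and below Apoe on each. At 4M it had 711.7 CPM in KO and 2244 CPM in Apoe. Of 26 measured ATF4 and CHOP targets 6 were lower in KO and 1 was higher (Psat1, of serine synthesis, 0.84). Of 34 genes of ER translocation and export 5 were lower, Sec24a of the COPII coat most (-0.90), and of 23 further ER chaperones and folding enzymes 4 were lower, P4hb among them (-0.40). These last counts are near the 11.4% of all genes called lower and are no result about either list.

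The same lists at 4M show how far the change in the 10 genes extended. Rose and fell here give the sign of a called 4-month term, not a change along the diet. Of all 7994 genes tested 14.7% rose and 32.5% fell. Among 34 genes of translocation into and export from the ER, 19 rose and 1 fell, with a median of 0.65 against -0.23 for all genes tested. Sec24a (1.96), the KDEL receptors Kdelr3 (1.86) and Kdelr2 (1.79), which return ER residents from the Golgi, Ssr2 (1.70) and the channel subunit Sec61a1 (1.68) had the largest terms. Kdelr2 had 254.5, 262.0, 242.1 and 659.6 CPM in KO and 281.8, 300.4, 276.3 and 214.3 CPM in Apoe, from ND to 4M. KO 4M alone stood above 300.4 CPM.

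Of 23 further ER chaperones and folding enzymes 10 rose and 1 fell, with P4hb, the disulfide isomerase that is also a subunit of collagen prolyl hydroxylase, at 1.49. The median of that list was 0.43. Of 22 degradation genes 7 rose, led by Os9 (1.40) and the ubiquitin ligase Syvn1 (1.39), and 1 fell (Nploc4, -0.81). The median of that list was -0.03. Of 14 sensors and regulators 7 rose and 4 fell. The count that fell is near the 32.5% of all genes and is no result about the list. Ern1, which encodes IRE1, rose by 1.49, at 35.1 CPM in KO 4M against 10.1 CPM in Apoe 4M. Atf6 had -0.24 and was not called, and Atf6b had -0.61 and was called lower. Eif2ak3, which encodes PERK, was listed at 0 in KO 2M and so was not tested. Eif2s1, the translation factor that PERK phosphorylates, rose by 0.97. Wfs1, wolframin, fell by 0.90.

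Of 26 measured ATF4 and CHOP targets, 16 rose and 5 fell, with a median of 0.90. Of all genes tested 32.5% fell, a larger share than in this list. Mthfd2, of mitochondrial folate metabolism, rose by 2.13 and Slc3a2, an amino acid transporter subunit, by 1.93. Slc3a2 had 108.5, 168.2, 180.7 and 613.5 CPM in KO and 117.7, 120.2, 158.7 and 140.5 CPM in Apoe. Cebpb, a transcription factor, rose by 1.65. Gdf15, a stress-induced cytokine, fell by 2.29, with 21.6 CPM in KO 4M against 84.5 CPM in Apoe 4M, and Bbc3, the pro-apoptotic PUMA, fell by 1.46.

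**Figure D3:**
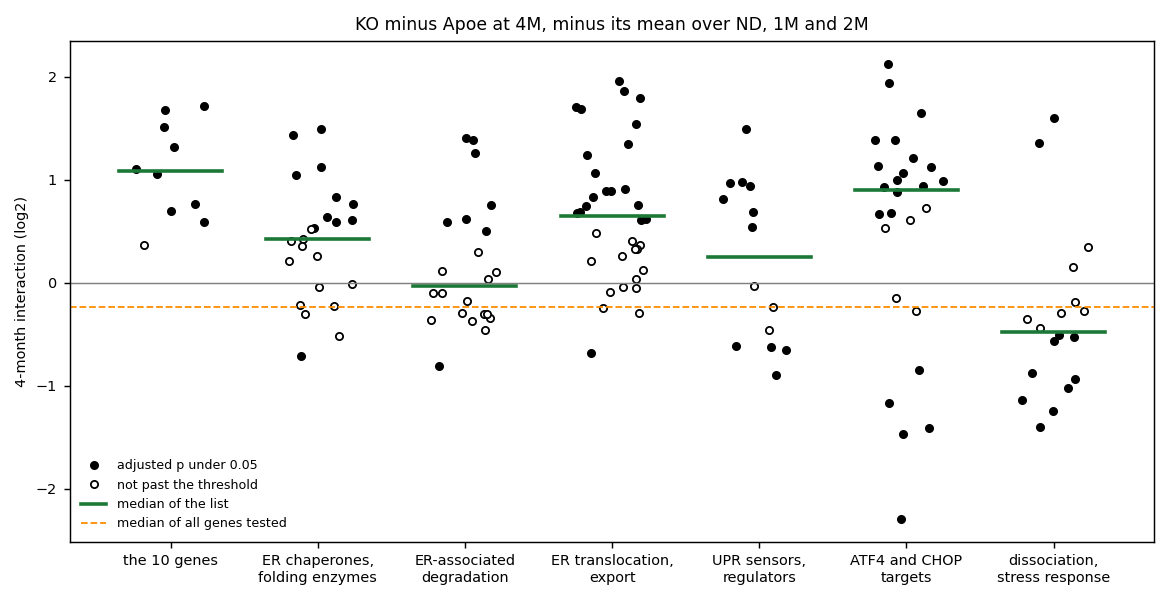
The 4-month term (log2, KO minus Apoe at 4M less its mean over ND, 1M and 2M) for each measured gene of 7 lists; filled points passed the adjusted p of 0.05, green bars are list medians and the dashed line is the median of all genes tested. The 10 genes have a median of 1.08, the export list 0.65 and the dissociation list -0.47.

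With time on diet as a number of months, 5 of the 10 genes rose within KO, against 31.9% of all genes called, 10.4% higher and 21.5% lower. The slopes per month were 0.50 ± 0.07 for Herpud1, 0.47 ± 0.10 for Pdia6, 0.36 ± 0.09 for Xbp1, 0.31 ± 0.08 for Ddit3 and 0.27 ± 0.08 for Pdia4 (log2, SE, limma adjusted p from 0.0101 to 0.0345). None of the 5 was called without KO 4M, without the 1M libraries or with ranks of time in place of months, and in each of these settings 0 of all 7994 genes were called (772, 2224 and 2694 at an unadjusted p under 0.05 by limma). Without 1M the slope of Herpud1 was 0.49 (adjusted p = 0.0979) and that of Pdia6 0.43 (adjusted p = 0.106). Without the 4M pair Herpud1 had a slope of 0.34 (adjusted p = 0.217) and Ddit3 of 0.24 (adjusted p = 0.252), while Pdia6, Xbp1 and Pdia4 had 0.08 or less. Hsp90b1 had 0.22 (adjusted p = 0.0558) and Hspa5, Calr, Atf4 and Dnajb9 between -0.03 and 0.09.

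Within Apoe, 0 of 7994 genes passed (491 at an unadjusted p under 0.05 by limma). The difference of the slopes also gave 0 calls (2030 at an unadjusted p under 0.05), with Herpud1 at 0.49 ± 0.10 per month (adjusted p = 0.136). For the other 9 genes it lay between 0.09 and 0.44 per month.

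Over the 8 libraries the 10 genes did not move as one. Pdia4 and Pdia6 followed each other most closely (Pearson r = 0.98 over 8 libraries, a description that rests largely on KO 4M), and Hsp90b1 and Dnajb9 ran opposite (r = -0.50). Genes were ranked by likeness to the mean of the 10 genes, among 3015 genes of at least 50 CPM on average, the 10 included. Xbp1 was at rank 6 (r = 0.97), Herpud1 was at rank 40, and Dnajb9 was at rank 921 (r = 0.11). Each of the 10 is part of that mean, which raises its own r. The mean of centred log2 values was 0.63 in KO 4M and between -0.25 and 0.17 in the other libraries. The 5 other genes most like the mean were Rcn3, Sar1a, Brix1, Top1 and Snrnp48 (r = 0.98 each). Rcn3, an ER calcium-binding protein, had 391.6, 387.7, 495.1 and 1011.5 CPM in KO and 517.0, 512.9, 601.6 and 474.1 CPM in Apoe.

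Ddit3 allowed a comparison within each library, between cells with at least 1 Ddit3 UMI and cells with none. The 8 libraries gave 8 pairs. Of the other 9 genes 4 were higher in Ddit3-positive cells, against 7.52% of 7993 genes called higher and 3.73% lower. Atf4 had a log2 difference of 0.29 ± 0.02 (SE, 8 pairs, limma adjusted p = 4.8e-06), and its ratio ran from 1.16 to 1.28. Herpud1 had 0.24 ± 0.04 (limma adjusted p = 0.0024), with the largest ratios in KO 2M (1.42) and KO 4M (1.39). Xbp1 had 0.22 ± 0.03 (limma adjusted p = 0.00086) and Dnajb9 0.14 ± 0.03 (limma adjusted p = 0.0171). All 4 were higher in 8 of 8 libraries.

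The other 5 genes, Hspa5, Pdia4, Pdia6, Hsp90b1 and Calr, were not called. Hspa5 had 0.06 ± 0.03 (adjusted p = 0.135, higher in 6 of 8 libraries), and Pdia4, Pdia6, Hsp90b1 and Calr had differences from 0.00 to 0.05. Of ATF4 and CHOP targets, 14 of 26 were higher and 0 lower, with Mthfd2 (0.54), Psat1 (0.43) and Sesn2 (0.41), a stress-induced regulator of growth signalling, at the top. Of 23 further ER chaperones and folding enzymes 2 were higher, Manf (0.16) and Dnajc3 (0.10), and of 34 translocation and export genes 2. These counts are near the 7.52% of all genes called higher and are no result about either list. Of 22 degradation genes 5 were higher, and of 14 sensors and regulators 3. Of 11 contractile genes 5 were lower, and of 18 dissociation and stress genes 5 were higher.

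Ddit3-positive cells were deeper in each library, with a median of 12761 UMIs against 8705 in Ddit3-negative cells of KO 4M and 9976 against 8922 in those of Apoe ND. With cells thinned to 2900 UMIs before the split, Atf4 was still called (0.24 ± 0.03, adjusted p = 0.00082) and was the only one of the 9. Herpud1 then had 0.17 (adjusted p = 0.311), Xbp1 0.15 (adjusted p = 0.421) and Dnajb9 0.12 (adjusted p = 0.365). In all, 34 genes were then called higher and 7 lower.

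**Figure D4:**
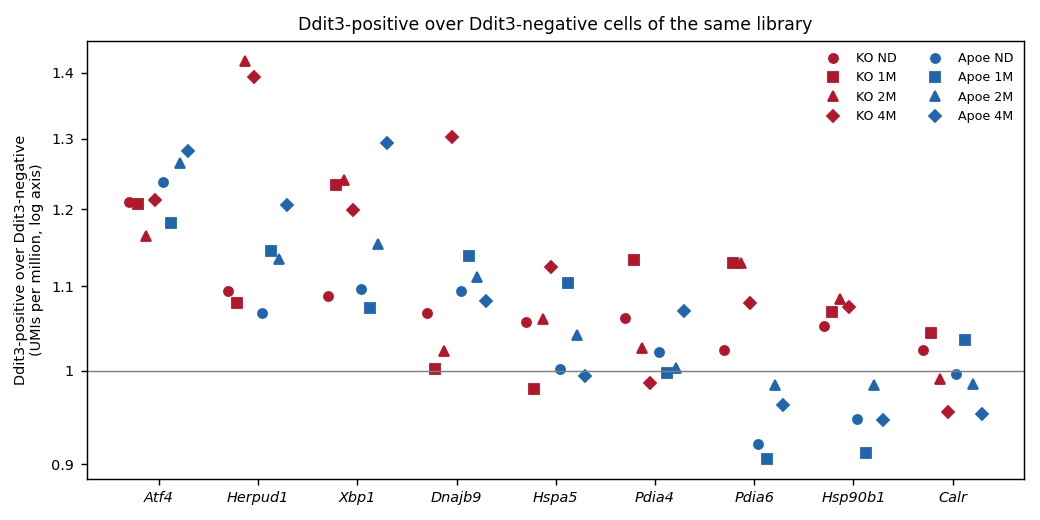
Ratio of CPM in Ddit3-positive over Ddit3-negative cells of the same library (log axis) for 9 genes, KO libraries in red and Apoe libraries in blue. Atf4, Herpud1, Xbp1 and Dnajb9 lie above 1 in all 8 libraries, and Calr on both sides of 1.

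Pdia6 and Hsp90b1 were higher in Ddit3-positive cells in 4 of 4 KO libraries and lower in 4 of 4 Apoe libraries. For Pdia6 the mean log2 difference was 0.12 in KO and -0.08 in Apoe. For Hsp90b1 it was 0.10 in KO and -0.08 in Apoe. A test of the difference between genotypes, added after these values were seen, called 0 of 7993 genes by limma (511 at an unadjusted p under 0.05), with an adjusted p of 0.737 for both.

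Col2a1 was used as a measure of how far a KO 4M cell carried the cartilage program, with cells scaled to 10000 UMIs. High cells had at least 100 Col2a1 UMIs and low cells under 10. KO 4M held 564 high cells (35.8%) and 175 low cells (11.1%), with 838 between. Acta2 had 164 CPM in high cells and 4179 CPM in low cells. Of the low cells 99.4% still had a Col2a1 UMI, and the median low cell had 8.13. Near the bound of the high bin, between 80 and 125 UMIs, lay 188 cells, and near that of the low bin, between 8 and 12.5 UMIs, 198 cells, more than the low bin holds. Apoe 4M held 27 high cells and KO 2M 23, so only KO 4M had 50 cells on both sides. In these few high cells Pdia6 had 143.8 CPM against 131.9 CPM in low cells of Apoe 4M. In KO 2M it had 656.9 CPM against 118.6 CPM. Hspa5 had 305.3 CPM in high and 790.0 CPM in low cells of Apoe 4M, and 1139.7 and 805.3 CPM in KO 2M. A comparison by limma of the 25% of cells highest and the 25% lowest in Col2a1 within Apoe 4M, KO 2M and KO 4M called 0.0120% of genes higher, and 0 of the 10.

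In KO 4M, 4 of the 10 genes were at least 1.5-fold higher in Col2a1-high cells, against 8.89% of 9884 genes higher and 33.7% lower. Ddit3 had 137.5 CPM in high cells and 66.9 CPM in low cells, a ratio of 2.06 (counting interval 1.67 to 2.55). That ratio moved with the setting: it was 1.17 (0.86 to 1.61) with cells thinned to 2900 UMIs and 1.33 between the 25% of cells highest and the 25% lowest in Col2a1. Herpud1 had 458.3 CPM in high cells and 227.3 CPM in low cells, a ratio of 2.02 (1.80 to 2.26). Pdia6 had 513.4 CPM in high cells and 291.4 CPM in low cells. Atf4 had 694.0 CPM in high cells and 395.2 CPM in low cells. Both of these ratios were 1.76, and Xbp1 followed at 1.44.

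The chaperones differed less between the bins, and here the scaling mattered. By the totals of each bin without Col2a1, the median gene lay at -0.32 on the log2 scale. Hsp90b1, Calr, Pdia4 and Dnajb9 then had ratios from 0.99 to 1.07, each with a counting interval that held 1. Hspa5 had 1.11 (1.05 to 1.18). With median-of-ratios factors, which put the median gene at 0, these 4 genes had ratios from 1.23 to 1.33 and Hspa5 had 1.39. Every interval then lay above 1, and 5 of the 10 genes passed 1.5-fold. Of all 9884 genes, 1719 were at least 1.5-fold higher by these factors and 1912 lower. After thinning Calr had 1.21 (1.05 to 1.39), and between the highest and lowest 25% of cells Hspa5 had 0.87 (0.84 to 0.91). Among ATF4 and CHOP targets 12 of 30 were at least 1.5-fold higher in high cells and 2 lower. High cells were also deeper, with a median of 13727 UMIs against 7571 in low cells, and the dissociation and stress genes summed to 6173 CPM in high cells and 9119 CPM in low cells. With cells thinned to 2900 UMIs Pdia6 (2.14), Herpud1 (1.76), Atf4 (1.73) and Xbp1 (1.73) passed 1.5-fold and Ddit3 did not. Of 9846 genes, 1158 were then at least 1.5-fold higher and 3425 lower. The part of the dissociation genes was not tested. Over the 1577 thinned cells the rank correlation with Col2a1 was weak for every gene (Spearman rho at most 0.22, for Pdia6).

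Ordered into 10 groups of cells from lowest to highest Col2a1, Atf4 climbed from 400.9 CPM in the lowest group to 704.8 CPM in the eighth group and stood at 699.0 CPM in the highest. Pdia6 went on climbing to its highest level, 546.5 CPM, in the group with most Col2a1. Herpud1 reached 484.0 CPM in the eighth group and had 435.5 CPM in the highest. Dnajb9 had 206.5 CPM in the highest group, its lowest level of the 10, and 351.8 CPM in the seventh. Ddit3 had 68.2 CPM in the lowest group, 129.3 CPM in the second and 128.5 CPM in the highest. Hspa5 lay between 931.5 CPM in the highest group and 1439.7 CPM in the second. These groups come from 1 library and were added after the data were seen.

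**Figure D5:**
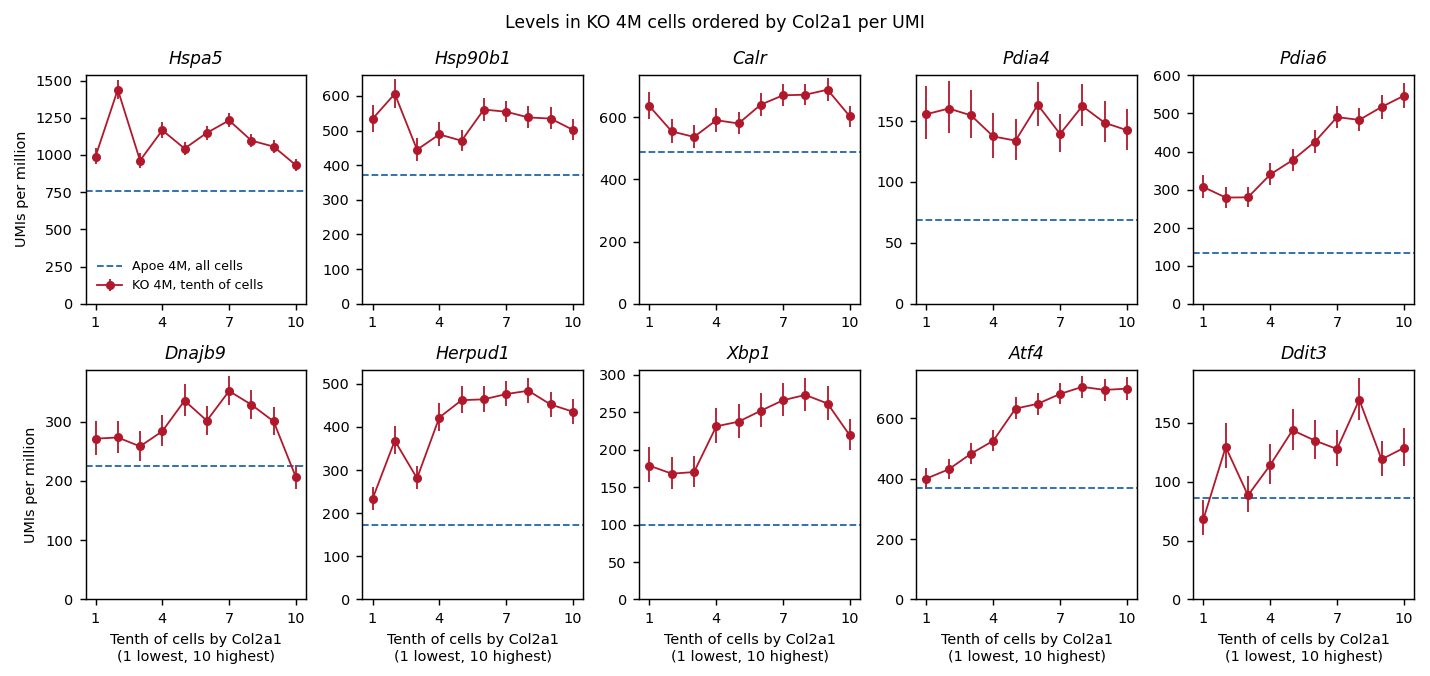
CPM of each gene in KO 4M cells split into 10 equal groups by Col2a1 per UMI, with Col2a1 left out of the totals. Bars are exact Poisson 95% intervals. The dashed line is the level over all Apoe 4M cells, with Col2a1 in the total. Atf4 and Pdia6 are higher toward the right, while Pdia4 stays near 150 CPM throughout and above the Apoe 4M level of 69.0 CPM.

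KO 4M cells low in Col2a1 were then set against the 1184 low cells of Apoe 4M. Pdia6 had 291.4 CPM in KO and 131.9 CPM in Apoe, a ratio of 2.21 (counting interval 1.97 to 2.47). Pdia4 had 151.5 CPM in KO and 69.4 CPM in Apoe, a ratio of 2.18, and Xbp1 a ratio of 1.92. Herpud1 (1.42), Hsp90b1 (1.38), Calr (1.28), Hspa5 (1.24), Dnajb9 (1.18) and Atf4 (1.15) were nearer to 1, each with an interval above 1. Ddit3 alone was lower in these KO cells, at 66.9 CPM against 81.9 CPM, a ratio of 0.82 with an interval that held 1 (0.65 to 1.01). These low cells were unlike between genotypes, with Acta2 at 4179 CPM in KO and 12881 CPM in Apoe. They were not matched on Col2a1 either. The median cell had 8.13 Col2a1 UMIs per 10000 in KO and 0 in Apoe, and 99.4% and 33.9% of cells had at least 1. Cartilage genes other than Col2a1 summed to 5288 CPM in KO and 580 CPM in Apoe.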

How the data were processed

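The deposited tables hold log2 values for each gene in each cell; per the file names in the labels, the authors scaled them by TMM. The submitters' processing notes name UMI-tools, STAR, featureCounts, Subread 1.6.0 and the build GRCm38, and no source used here names the annotation release. Each library is in 2 of the 6 tables, and values came from the table of its diet. All entries turned back into whole UMIs (tolerance 0.01), which were summed per library. A gene seen in under 5% of the cells of a library is listed there at 0, so fits used the 7994 genes listed in all 8 libraries. CPM are relative to the UMIs of listed genes. Where cells were split by Ddit3 or Col2a1, CPM are relative to the summed UMIs of the cells on each side. The gene that made the split was left out of those sums.

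Since the files hold log2 values, limma 3.58.1 (R 4.3.3, trend) was used on log2(CPM + 1), with Benjamini-Hochberg adjustment over all genes and a threshold of 0.05. Residual degrees of freedom were 3 for the genotype effect, in which diets were paired, 2 for the 4-month term, which adds genotype by 4M, 4 for slopes, with a level for each genotype, and 7 for the Ddit3 comparison, in which libraries were paired. The fits were tested on simulated data. Library sums were preferred to mean log2 values over cells, which move with depth per cell. Intervals are exact Poisson or binomial (Clopper-Pearson) at 95% and cover counting error only. All cells were kept, doublets were not called, and libraries shared at most 9 barcodes. Of the 11447 gene identifiers 11439 matched GENCODE vM21.

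The 10 genes, the lists and the tests were chosen with earlier results of these data known. Named from each list are genes past the threshold, at most the 5 with the largest change; other named genes were picked after their values were seen. The alternatives tried were other scalings, pseudocounts, filters, thinning, and leaving out libraries or cells with other-type markers.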

Additional observations from a re-analysis of the deposited data

Results flagged for a closer look

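For 9 of the 10 genes the KO-minus-Apoe difference at 4M differed from that on the other 3 diets by a test of the difference itself (limma, adjusted p under 0.05 over 7994 genes). On the log2 scale the terms were 1.71 for Herpud1, 1.68 for Pdia6, 1.51 for Xbp1, 1.31 for Atf4, 1.11 for Ddit3, 1.05 for Pdia4, 0.76 for Dnajb9, 0.69 for Hspa5 and 0.59 for Hsp90b1. The same test called 47.2% of all genes, 14.7% higher and 32.5% lower. Each term rests on 1 library per genotype at 4M. In that pair the KO library also had the higher depth per cell, with a median of 10988 UMIs against 6966 in Apoe, and the lower sum of dissociation and stress genes, with 6653 CPM against 13803 CPM in Apoe. With cells thinned to 2900 UMIs, 9 of the 10 genes were again called higher, and of all 7994 genes 1041 were called higher and 2202 lower. The part of the dissociation genes was not tested.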

How the results depend on the processing

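The labels carry no replicate numbers, so no replicate block was fitted, and the pairs in the fits are diets or libraries. For the 4-month term, 9 of the 10 genes were called higher under library totals and from 7 to 10 under the alternatives. All genes called higher numbered 1177 with library totals, 2441 with mean log2 values over cells and 1841 with median-of-ratios factors. Those called lower numbered 2600 with library totals, 1247 with mean log2 values and 1865 with median-of-ratios factors. With genes listed in only some libraries let in, 7 of the 10 and 956 of 9253 genes were called higher. For the genotype effect, 4 of the 10 genes were called lower without the 4M libraries and 4 without KO 4M alone. The calls over all genes were then 565 higher and 909 lower, or 564 and 905. Other settings called 0 of the 10 genes, with 1 gene higher and 2 lower by median-of-ratios, 1 and 3 after thinning, 0 and 7 with mean log2 values, and 1 lower each with a pseudocount of 10 and a wider filter.

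For the slope within KO, 0 of the 10 genes were called without the 1M libraries, without the 4M libraries, without KO 4M or with ranks of time. All genes called were 0 without 1M, without KO 4M and with ranks, and 7 higher and 3 lower without the 4M pair. They were 1288 higher and 2795 lower without 2M, and 1328 higher with median-of-ratios factors. For the difference of slopes, Herpud1 and Atf4, 2 of the 10, were called without 2M (466 genes higher, 1143 lower), and 1 gene was called higher without 4M. The cause of these changes was not tested.

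In the Ddit3 comparison 1 of the 9 genes was called after thinning, with 34 genes higher and 7 lower in all. With at least 2 Ddit3 UMIs 462 genes were lower. Leaving out 1 library at a time kept 4 of the 9 genes called, with 395 (without Apoe 2M) to 784 (without KO 4M) genes higher and 175 to 365 lower, against 601 and 298 with all 8. By median-of-ratios factors 10 of the 10 genes passed 1.5-fold at 4M, against 5 by totals. Of all 8624 genes listed in both 4M libraries, 2053 were at least 1.5-fold higher in KO by these factors, against 1266 by totals. At 2M 1 gene had the higher share in KO after thinning, against 0 before. Median-of-ratios factors also moved the split of calls in the Ddit3 comparison, to 556 higher and 436 lower.

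The planned test of Col2a1-high against Col2a1-low cells over libraries, with its alternatives, was not run, since only KO 4M had enough cells. The 25% of cells highest in Col2a1 set against the lowest 25% in Apoe 4M, KO 2M and KO 4M called 0 of the 10 genes and 1 of 8316 genes by limma (1227 at an unadjusted p under 0.05), and in KO 2M those cells include some with no Col2a1 UMI. Depth limits the rarer genes most, the lowest total being 629 UMIs for a gene in a library.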
